A study of Mus musculus and Homo sapiens with 22 samples.

Results

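The m6A writer is the nuclear protein complex that puts a methyl group on the N6 position of adenosines in mRNA, mostly inside the motif DRACH (D = A, G or U; R = A or G; H = A, C or U). The 8 mouse genes Mettl3, Mettl14, Wtap, Virma, Zc3h13, Cbll1, Rbm15 and Rbm15b were followed as its subunits, chosen by name, out of 56196 genes in the count files, and their upper-case human symbols were used for human cells. Mettl3 is the catalytic subunit and Mettl14 its partner, which holds the RNA. Wtap anchors this pair to a larger regulatory part made with Virma, Zc3h13 and Cbll1 (also called Hakai), and Rbm15 and Rbm15b are paralogous RNA-binding proteins that guide the complex to its targets. All 8 genes were present in the counts and passed the filter on low counts.

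The study mapped m6A with miCLIP2, in which an antibody is crosslinked to methylated RNA by UV light and the modified base is read from truncated cDNAs, and predicted sites with the classifier m6Aboost. Site lists were available for WT (wild-type) mESCs, which are embryonic stem cells of the mouse, for HEK293T cells, a human embryonic kidney line, and for mouse heart at 4 inputs of purchased poly(A)+ RNA. RNA-seq counts came from 3 WT and 3 Mettl3 knockout (KO) mESC libraries. Both mESC lines were taken over from earlier work, and the number of KO clones and of animals behind the heart RNA is not given in the sources used here. For another assay of the study the mESCs were grown on irradiated mouse fibroblasts that were removed before RNA isolation. HEK293T cells were kept in DMEM with serum. The mESC and HEK293T lists combine the replicates of a sample and each heart list stands for 1 library, so the lists carry no spread between replicates and no read depth. In bulk RNA, fewer cells of a type and less RNA per cell cannot be told apart.

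Gene counts per library ranged from 22746733 to 27254245, and the 8 subunits took 0.0461% to 0.0518% of them in WT and 0.0925% to 0.0995% in KO. Pluripotency markers (Pou5f1, Nanog, Sox2, Zfp42, Esrrb, Dppa5a) summed to 3276 to 3410 CPM (reads of a gene per megaread counted, with the library total scaled by TMM factors) in WT and 2695 to 2751 in KO, and only Dppa5a passed the test, downwards. Fibroblast markers (Col1a1, Col1a2, Col3a1, Thy1, Dcn, Lum) summed to 2.93 to 4.58 CPM in WT and 6.72 to 7.90 in KO, with Col3a1, Dcn and Lum near 0 in all 6 libraries, and Col1a2 below 1 CPM. Of the 2 tested markers, Thy1 was higher in KO (mean 2.66 and 6.08 CPM) and Col1a1 stood at 1.27, 1.37 and 0.80 CPM in WT and 0.72, 0.78 and 0.48 CPM in KO, all below WT (adjusted p = 0.0737 in edgeR, not called). The part of these differences in the results below was not tested. The heart list at 1 µg held 195 sites in Ttn and 23 in Ryr2, both heart muscle genes without a site in the mESC list, whereas Sox2 and Nanog had 15 and 7 sites in mESCs and 0 in heart. Esrrb had sites in both, 15 in mESCs and 6 in heart at 1 µg. Myl2, another heart gene, had no site in the mESC list or in any heart list.

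Sites in exons of the subunits numbered 62 of 25456 in mESCs, 78 of 46421 in heart at 1 µg and 74 of 36556 in HEK293T cells. In each of these lists 7 of the 8 subunits carried a site. Among all genes tested in mESCs, 42.0% had at least 1 exonic site in the mESC list, and among annotated protein-coding genes 38.2% had a site in heart at 1 µg and 36.5% in HEK293T cells. A DRACH motif was present at 59, 77 and 69 of the sites. Every site fell in an exon of at least 1 annotated transcript of its gene, and none in an exon shared with another gene on the same strand. Some sites of Wtap and Virma lay in exons of shorter transcripts that are intron in the longest coding transcript. In mESCs Rbm15 carried 18 sites, Wtap 15, Rbm15b 12, Virma 9, Zc3h13 4, Mettl14 3 and Cbll1 1. Mettl3 was the subunit without a site in both mouse lists, and CBLL1 was the subunit without a site in HEK293T cells. Among the 6729 genes with a site in mESCs, the median gene had 3, and 99.5% of these genes had as many sites as Rbm15 or fewer.

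The sequences below show 3 of the sites that mouse and human share in Wtap, which is discussed first because its site pattern involves a second end of the transcript. Each window holds 21 nt of the RNA strand, written as DNA and 5′ to 3′, with the 5 nt centred on the predicted A in capitals. The first pair lies in exon 6 of the full-length transcript, and the other pairs lie beyond it, in the 3′ UTR of shorter annotated transcripts.
Wtap, GRCm38 chr17:12975325, minus strand: cccaaaatGAACTgagtgcct
WTAP, GRCh38 chr6:159748340, plus strand: cccaaaatGAACTgagtgcct
Wtap, GRCm38 chr17:12974784, minus strand: tgccaataAGACTgtggactt
WTAP, GRCh38 chr6:159748884, plus strand: tgccaataAGACTgtggactt
Wtap, GRCm38 chr17:12974777, minus strand: aagactgtGGACTtcatgatt
WTAP, GRCh38 chr6:159748891, plus strand: aagactgtGGACTtcatgatt

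All 21 bases of these windows were the same in both species. Of the 7 Wtap pairs in the longest coding transcript, all coding, only the pair at chr17:12967831 differed, with 19 of 21 shared. The windows of the mouse sites beyond exon 6 that did not fall on a human site shared 15 to 21 of 21 bases. Wtap lies at chr17:12966796-12994169 (minus strand). Of its 15 sites in mESCs, 7 lay in the coding part of the last exon of the longest coding transcript (exon 8, 1256 nt), 2 lay in exon 6 (179 nt) and 6 lay past the end of exon 6, where a shorter transcript continues into a last exon of 2790 nt with its own 3′ UTR. Human WTAP had the same arrangement, with 4 sites in exon 8, 3 in exon 6, 1 in exon 5 and 8 beyond exon 6 in the 3′ UTR of 2 shorter transcripts. The site with the highest prediction score among all subunit sites was in this region in both cell types. It had a score of 0.953 at chr17:12975062 in mESCs (98.4th percentile of the list) and 0.979 at chr6:159748891 in HEK293T cells (99.7th percentile). The mouse window of the former was the following.
Wtap, GRCm38 chr17:12975062, minus strand: atgccgtcGGACTattccgaa

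When the region after exon 6 was aligned between the species (87.9% identity over 2633 aligned nt), 2 of the 6 mouse sites beyond exon 6 fell on a human site. The human base lay in a DRACH motif for 5 of the 6. The gene counts do not separate the shorter from the full-length transcripts. Neither the counts nor the site lists tell a shorter transcript from a full-length one that retains the intron after exon 6. The heart list at 1 µg shared 11 of its 13 Wtap sites with mESCs, and all 4 of its sites beyond exon 6 were among these.

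Both genes of the catalytic core carried fewer sites than Wtap, Virma, Rbm15 or Rbm15b in mESCs, heart at 1 µg and HEK293T cells. Among genes with a site in HEK293T cells the median was 3, below the 5 of METTL3. Mouse Mettl3 (chr14:52294841-52305128, minus strand) had 37 DRACH motifs in its coding sequence of 1740 nt and no predicted site in mESCs or in heart, while METTL3 had 5 sites in HEK293T cells, all coding, 2 in exon 1 (217 nt) and 3 in exon 3 (405 nt). The windows of these 5 sites are shown with the aligned mouse sequence, whose 5 central bases are in capitals too, because the motif itself differs at some of them.
METTL3, GRCh38 chr14:21511177, minus strand: aagcagctGGACTctctgcgg
Mettl3, GRCm38 chr14:52304941, minus strand: aaacagctGGACTcgcttcgc
METTL3, GRCh38 chr14:21511138, minus strand: cggaagcaGGACTcggggcac
Mettl3, GRCm38 chr14:52304902, minus strand: cggaagcaGGACTctgggcac
METTL3, GRCh38 chr14:21503382, minus strand: ggtagcagGGACTgtcacagg
Mettl3, GRCm38 chr14:52299910, minus strand: ggtagcagGGACCatcgcagg
METTL3, GRCh38 chr14:21503348, minus strand: gcagaacaGGACTcgactaca
Mettl3, GRCm38 chr14:52299876, minus strand: gcagaacaGGATTtgactaca
METTL3, GRCh38 chr14:21503300, minus strand: tctggtctGAACTcttcagca
Mettl3, GRCm38 chr14:52299828, minus strand: tctggtctGGCCTcttcagca

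At 3 of the 5 human METTL3 sites the mouse base stood in a DRACH motif, and none of these 3 was in a mouse list. At the other 2 the mouse sequence had no DRACH motif at the aligned base. The best-scoring METTL3 site was chr14:21511138 (0.884, 90.2nd percentile). Absence from a list depends on the reads over a gene, which the lists do not give. Mettl14 (chr3:123368297-123386108, minus strand) had 3 sites in mESCs, all in its last exon (exon 11, 1394 nt). A coding site at chr3:123369537 (codon 407) was also found in heart, and the other 2 lay 123 and 140 nt after the stop codon. The better-scoring of these (0.892) is printed.
Mettl14, GRCm38 chr3:123369265, minus strand: caccccagGGACTggcagttg
METTL14 had 2 coding sites, at codons 386 and 394, and neither coincided with a mouse site although all 5 sites of the 2 species lay in exon 11.

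Virma (chr4:11485958-11550684, plus strand), the large scaffold of the regulatory part, had 9 sites in mESCs and 18 in heart at 1 µg, of which 8 were shared. In mESCs all 9 lay in 3 of its 25 exons, 4 in exon 8 (1141 nt), 2 in exon 10 (489 nt) and 3 in exon 14 (545 nt). The same 3 exons held 16 of the 18 heart sites, and the other 2 lay in the 3′ UTR of a shorter transcript. The human gene had 9 sites, 5 in exon 8, 3 in exon 9 (492 nt) and 1 in exon 13 (545 nt). The best-scoring mESC site was at codon 533 (0.891) and is printed. The best-ranked heart site was at codon 536 (83.7th percentile of the 1 µg list), where the site at codon 533 ranked at the 55.2nd percentile.
Virma, GRCm38 chr4:11513746, plus strand: gctatcaaAGACTtctggaac

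Zc3h13, the zinc finger protein that keeps the complex in the nucleus (chr14:75284373-75344426, plus strand), had 4 sites in mESCs, all in exon 15 (513 nt) between positions 75331964 and 75332029, and all 4 were present in heart at 1 µg. Heart had 7 more, 2 in exon 10, 1 in exon 14 and 4 in exon 19, of which 3 were in the 3′ UTR. The site at chr14:75331986 was the only subunit site detected at 100 ng, and it was also present in mESCs, at 300 ng and 1 µg of heart RNA and, at the aligned base, in HEK293T cells. Its sequence is shown in both species, with 19 of 21 bases the same.
Zc3h13, GRCm38 chr14:75331986, plus strand: aaagagagAGACTgatctctg
ZC3H13, GRCh38 chr13:45967742, minus strand: aaagagagAGACTaatttctg

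Cbll1, an E3 ubiquitin ligase (chr12:31484829-31499616, minus strand), carried 1 site in each mouse list, 17 nt (mESC) and 69 nt (heart) after the stop codon in the last exon of 3379 nt. The positions were not the same. No site was found among its 32 coding DRACH motifs.
Cbll1, GRCm38 chr12:31487264, minus strand, mESC: agtgttttGAACTgaagatat
Cbll1, GRCm38 chr12:31487212, minus strand, heart: ttgaccttTGACTgtggaagg

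The RNA-binding paralogues carried many coding sites. In Rbm15 (chr3:107325421-107333673, minus strand), 17 of 18 mESC sites lay in the coding part of exon 1 (3459 nt), and the remaining site, 29 nt after the stop codon at chr3:107326255, had the highest score of the gene (0.928). Rbm15b (chr9:106880918-106887428, minus strand) is a gene of 1 exon (6511 nt). All 12 of its mESC sites, 13 heart sites and 23 human sites were coding, while its 3′ UTR of 3386 nt held 70 DRACH motifs in mouse and that of 3836 nt held 77 in human without a site. The reading frames of Rbm15 and Rbm15b were then aligned (49.0% identical residues over 862 codons). Of the coding sites of Rbm15, 24 of 27 in mouse (mESC or heart at 1 µg) and 9 of 12 in human lay in aligned codons. Rbm15b had 16 and 23 coding sites. At the same aligned base of both genes lay 5 sites in mouse and 1 in human. The pairs of mouse sites with the longest shared sequence, 16 of 21 bases each, are shown, and the other mouse pairs shared 10 to 14. The former pair, at codons 220 and 183, was present in mESCs and heart in both genes.
Rbm15, GRCm38 chr3:107332422, minus strand: gcctttgtGAACTtccggagg
Rbm15b, GRCm38 chr9:106886420, minus strand: gcctacgtGAACTtccggcac
Rbm15, GRCm38 chr3:107330409, minus strand: ccacttagGAACCttgtgtcc
Rbm15b, GRCm38 chr9:106884509, minus strand: cttctcagGAACCtagtctcc

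**Figure D1:**
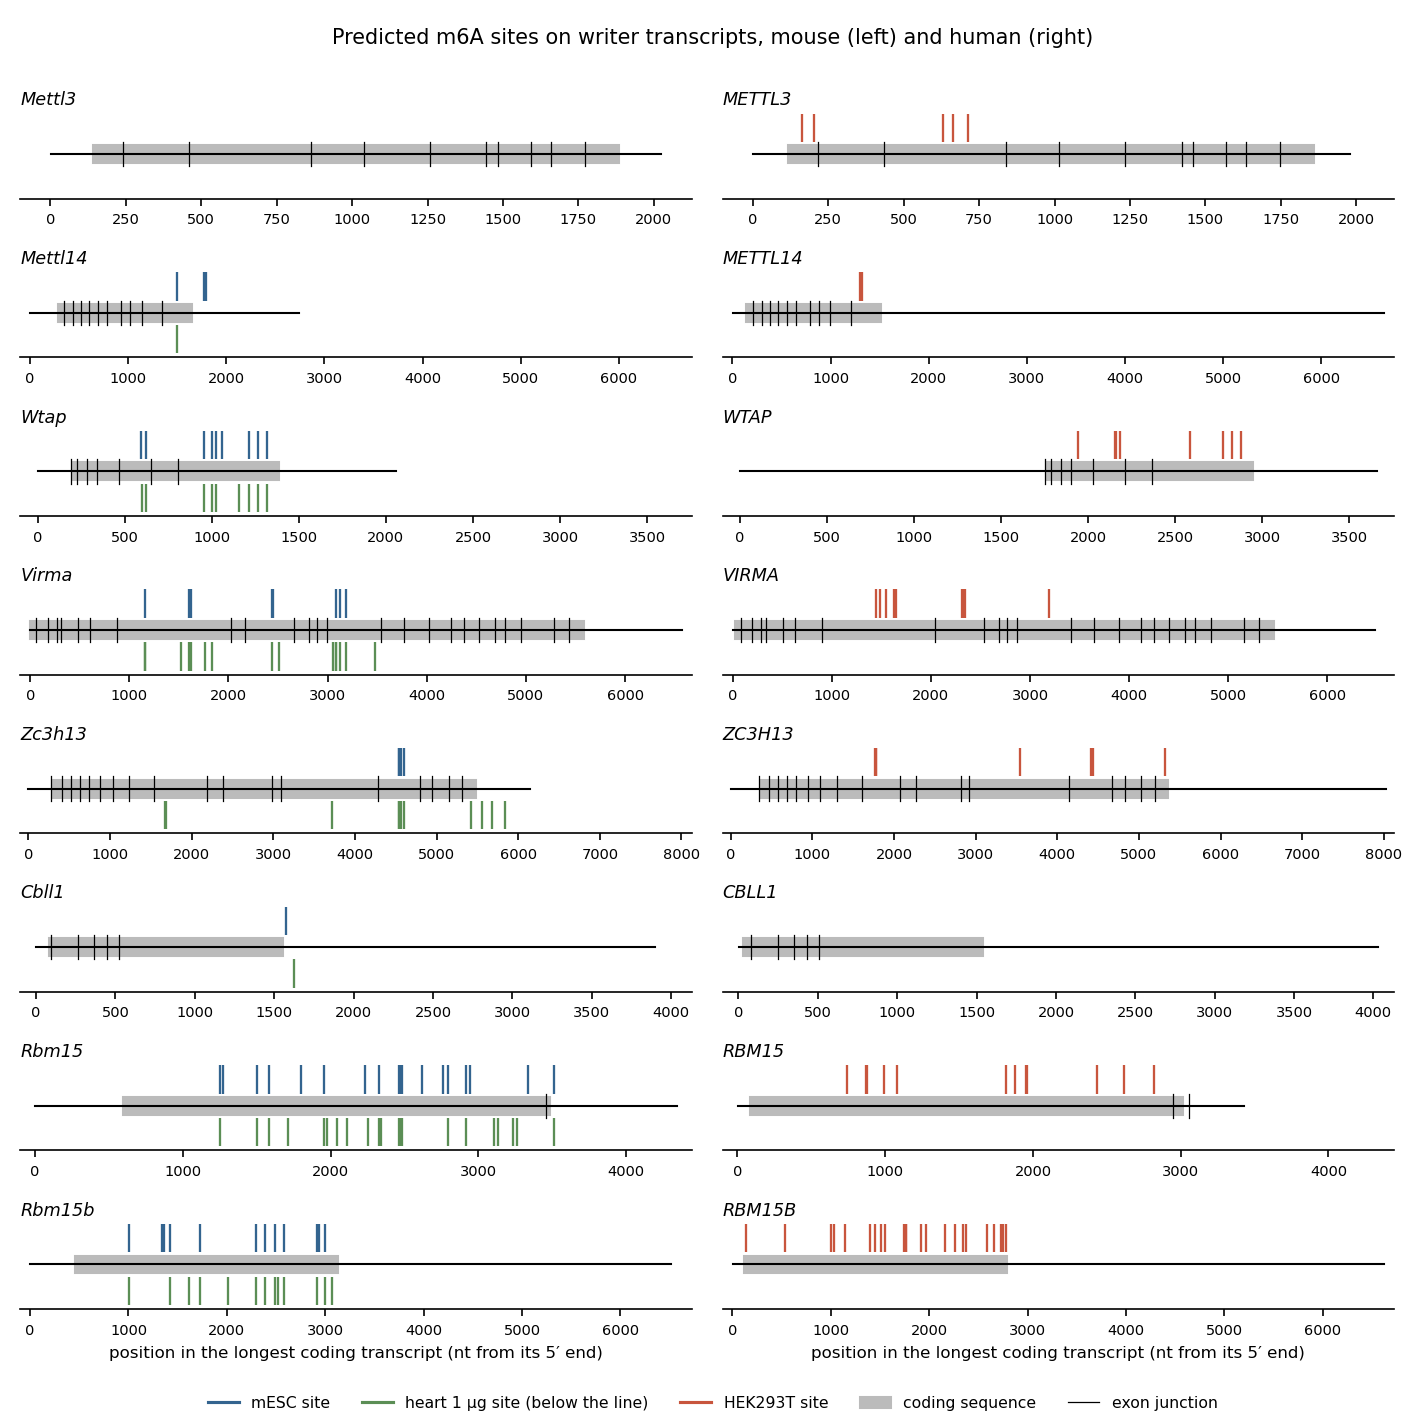
Predicted m6A sites along the longest coding transcript of each writer subunit, in nt from the 5′ end, for mouse (left, mESC above and heart 1 µg below the line) and human (right, HEK293T); grey boxes are coding sequence and thin vertical lines exon junctions. Sites crowd into the long exons of Rbm15, Rbm15b, Virma, Zc3h13 and Wtap, mouse Mettl3 and human CBLL1 are empty, and the sites beyond exon 6 of Wtap are not drawn because this transcript does not contain them.

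Pooled over the subunits, most sites along the transcripts were coding, but not in every gene. Both mouse sites of Cbll1 and 2 of the 3 mESC sites of Mettl14 lay in the 3′ UTR. Of the mESC sites that could be placed in the longest coding transcripts, 52 of 56 (92.9%) were coding, against 51.4% of 23756 sites of all genes placed the same way. In heart at 1 µg, 67 of 72 (93.1%) were coding, against 50.9%, and in HEK293T cells all 66, against 52.5%. The subunit sites left out by this placement all lay in introns of the longest coding transcript of Wtap or Virma. They were counted as 3′ UTR because shorter transcripts annotate them so. Over all subunit sites, 10 of 62 in mESCs, 11 of 78 in heart at 1 µg and 8 of 74 in HEK293T cells lay in a 3′ UTR. The share in exons longer than 400 nt was closer to that of all genes, with 96.4% against 90.2% in mESCs, 97.2% against 93.8% in heart and 90.9% against 90.6% in HEK293T cells. The pooled share in last exons was lower, although all sites of Mettl14, Cbll1 and the single-exon gene Rbm15b lay in the last exon, with 42.9% against 68.8% in mESCs, 37.5% against 71.9% in heart and 45.5% against 70.2% in HEK293T cells. Over all subunit sites, 30 of 62 in mESCs, 33 of 78 in heart at 1 µg and 38 of 74 in HEK293T cells lay in a last exon. These shares are descriptions with no test, since sites of a gene are not independent.

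Of the DRACH motifs in annotated exons of the 8 genes, 5.57% were predicted sites in mESCs, against 3.15% over all genes with a site. The shares were 7.27% against 4.19% in heart at 1 µg and 5.93% against 3.85% in HEK293T cells. Within the complex they ranged from 0 in Mettl3 to 11.6% in Rbm15 in mESCs, and in HEK293T cells from 0 in CBLL1 to 15.6% in RBM15B. The pentamer AGACT was the most frequent at subunit sites (14 of 62 sites in mESCs, or 22.6%, against 13.2% of the whole list), and GGACT was at 16.1% against 22.9%.

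It was then asked how the sites compared between tissues and inputs. Of the subunit sites, 44 were shared between mESCs and heart at 1 µg, which was 71.0% of the mESC and 56.4% of the heart sites. Over all genes with sites in both lists the shares were 68.9% and 51.4%. Virma and Zc3h13 carried more sites in heart (18 and 11) than in mESCs (9 and 4), and heart contained 8 of the 9 and 4 of the 4 mESC sites. At 300 ng of heart RNA 14 subunit sites were listed in 5 genes, and 13 of them were in both the 1 µg and the mESC list. Rbm15 had 5 of them, Zc3h13 4, Wtap 2, Rbm15b 2 and Virma 1. At 100 ng the Zc3h13 site described above was left, and at 50 ng none was left, out of 1112 and 248 sites in these lists. The labels give the 3 lower inputs in µg, whereas the file names and the methods give ng, which is used here.

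Between mouse and human, 88 of the 96 distinct mouse sites (mESC or heart at 1 µg) lay in the aligned longest coding transcripts. The aligned human base was itself a HEK293T site for 33 of them (37.5% of the placed mouse sites and 50.0% of the 66 placed human sites). Wtap had the highest share among the mouse genes (7 of 11), followed by Zc3h13 (5 of 11), Rbm15b (7 of 16), Rbm15 (9 of 28) and Virma (5 of 17), and Mettl14 and Cbll1 had none. Of the 462 motifs that were DRACH at the aligned base in both species, 64 were a mouse site, of which 32 (50.0%) were also a HEK293T site. Among the 398 without a mouse site, 19 (4.77%) were a HEK293T site, and 12 of these 19 were in Rbm15b.

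**Figure D2:**
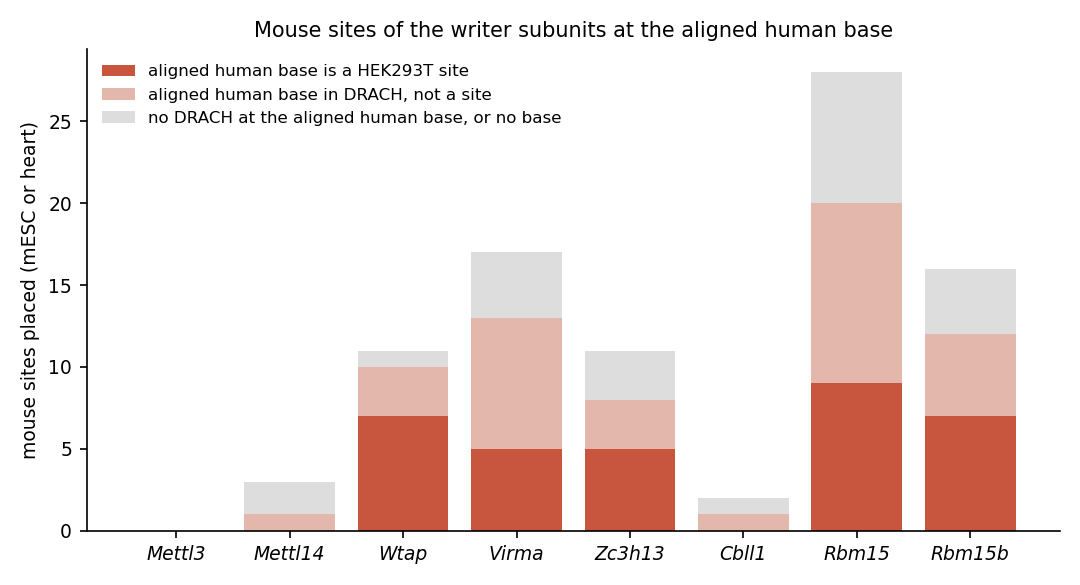
Number of mouse sites (mESC or heart 1 µg) of each subunit placed in the aligned longest coding transcripts, split by whether the aligned human base is a HEK293T site, lies in DRACH without being a site, or neither. Wtap has 7 of 11 sites at a human site and Rbm15 9 of 28, while Mettl14 and Cbll1 have none and mouse Mettl3 has no site.

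The plot of mouse sites by their human counterpart shows that most mouse sites without a human site still had the motif, since the human base lay in a DRACH motif for another 32 of the 88. For Virma this was the case for 8 of 17 sites and for Rbm15 for 11 of 28.

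The next comparison asked how the mRNAs of the subunits changed when Mettl3 was knocked out. Of the 8 subunits, 6 rose in KO mESCs and none fell with a threshold of 0.01 on the adjusted p (quasi-likelihood test of edgeR, Benjamini-Hochberg adjusted over 15731 genes), in a fit without the replicate number. With it as a block the same 6 rose, Mettl3 fell (adjusted p = 0.00281 in edgeR) and 6837 genes were called in place of 4669. Over all genes tested, 29.7% were called without the block, 17.1% higher and 12.6% lower. The CPM ranges of WT and KO did not overlap for 7 of the 8, against 56.1% of all genes. The risers were the 4 regulatory subunits and both RNA-binding paralogues, with a median log2 fold change over the 8 genes of 0.75, against −0.02 over all genes.

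**Figure D3:**
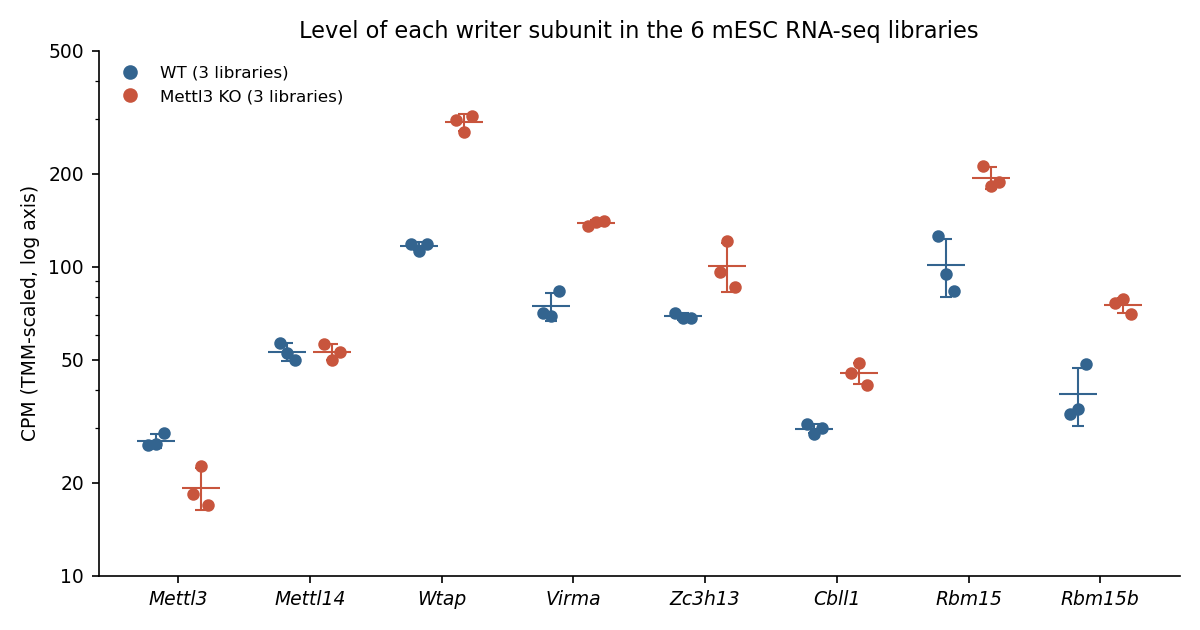
Level of each subunit in CPM (log axis) in each of the 3 WT and 3 KO mESC libraries (dots), with the mean and SD of each group (horizontal line and bars). Wtap, Virma, Zc3h13, Cbll1, Rbm15 and Rbm15b are higher in all 3 KO libraries, Mettl14 overlaps and Mettl3 is lower in all 3.

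Mettl3 itself, the targeted gene, stood at 26.4, 26.6 and 28.9 CPM in WT replicates 1 to 3 and at 18.4, 22.6 and 16.9 CPM in the KO replicates. All KO values were below all WT values, but reads from the locus were still counted. The log2 fold change was −0.50 (SE 0.14, adjusted p = 0.0134 in edgeR), which did not pass. With the replicate number as a block, a pairing read from these same data, it was −0.51 and passed (adjusted p = 0.00281 in edgeR). DESeq2 called it as well (adjusted p = 0.00663). Leaving out KO replicate 2 gave −0.62 and a call (adjusted p = 0.00685 in edgeR). It was not called with library size as the only scaling (−0.39, adjusted p = 0.0768 in edgeR), nor when any other library was left out, where the adjusted p in edgeR reached 0.0682 without KO replicate 3 (−0.41). In all, Mettl3 was called in 4 of 15 settings and had a negative value in each. Tox4 overlaps Mettl3 on the opposite strand, and reads were counted by strand. Mettl14 was at 56.6, 52.7 and 49.9 CPM in WT and at 56.1, 49.8 and 53.1 CPM in KO, with overlapping groups. Its log2 fold change of −0.0017 had a 95% interval from −0.23 to 0.23 (SE 0.10), and it changed sign without consequence for the call under other settings.

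Wtap rose most. Its level was 118.3, 112.7 and 118.6 CPM in WT and 299.4, 272.6 and 308.6 CPM in KO, 2.52-fold higher (log2 fold change 1.33, SE 0.10, adjusted p = 1.28e-05, edgeR). The KO values were close together and far above WT. Virma was at 70.9, 69.2 and 83.5 CPM in WT and at 135.2, 139.9 and 140.8 CPM in KO (log2 fold change 0.90, SE 0.11, adjusted p = 0.000141, edgeR).

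Zc3h13 rose least among the called subunits. It was at 70.9, 68.1 and 68.1 CPM in WT and at 95.8, 120.9 and 85.7 CPM in KO (log2 fold change 0.55, SE 0.13, adjusted p = 0.00675, edgeR). KO replicate 2 was the highest. This call was lost without WT replicate 1, 2 or 3 and without KO replicate 1 or 2, where the adjusted p in edgeR lay between 0.0101 and 0.0243 and the log2 fold change between 0.40 and 0.59. Cbll1 was at 30.9, 28.8 and 30.0 CPM in WT and at 45.3, 48.9 and 41.6 CPM in KO (log2 fold change 0.60, SE 0.11, adjusted p = 0.00161, edgeR).

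Both paralogues rose by a similar fold. Rbm15 was at 125.3, 94.97 and 83.7 CPM in WT and at 211.7, 182.3 and 188.7 CPM in KO, 1.92-fold higher (log2 fold change 0.94, SE 0.15, adjusted p = 0.000687, edgeR). WT replicate 1 was the highest WT library, and all KO values lay above it. Rbm15b was at 33.4, 34.5 and 48.4 CPM in WT and at 76.1, 78.6 and 70.5 CPM in KO, 1.94-fold higher (log2 fold change 0.95, SE 0.15, adjusted p = 0.000577, edgeR). Here WT replicate 3 was the highest of its group, and again the groups did not overlap. None of the 6 increases was shown to exceed 2-fold when tested against that size with glmTreat (adjusted p = 0.0154 for Wtap and 1 for the others).

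The other m6A genes gave a mixed picture. Of 8 reader genes, 3 rose and 1 fell, with Ythdf2, a cytoplasmic reader that speeds up mRNA decay, the highest (log2 fold change 1.31, SE 0.10, adjusted p = 1.35e-05, edgeR) and Igf2bp3 the lowest (−0.74, SE 0.12, adjusted p = 0.000716, edgeR). Of the 2 erasers, which remove m6A, Fto fell (−0.41, SE 0.10, adjusted p = 0.00655, edgeR), and Alkbh5 was at −0.43 (SE 0.15, adjusted p = 0.0373) without passing. None of the 5 other RNA adenosine methyltransferases (Mettl16, Mettl5, Zcchc4, Pcif1, Mettl4) was called by edgeR, with 2 of them (Mettl16, Mettl4) under an unadjusted p of 0.05. Of 3 nuclear partners, Thrap3 fell (−0.80, SE 0.16, adjusted p = 0.00279, edgeR), and Spen and Bclaf1 were not called.

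**Figure D4:**
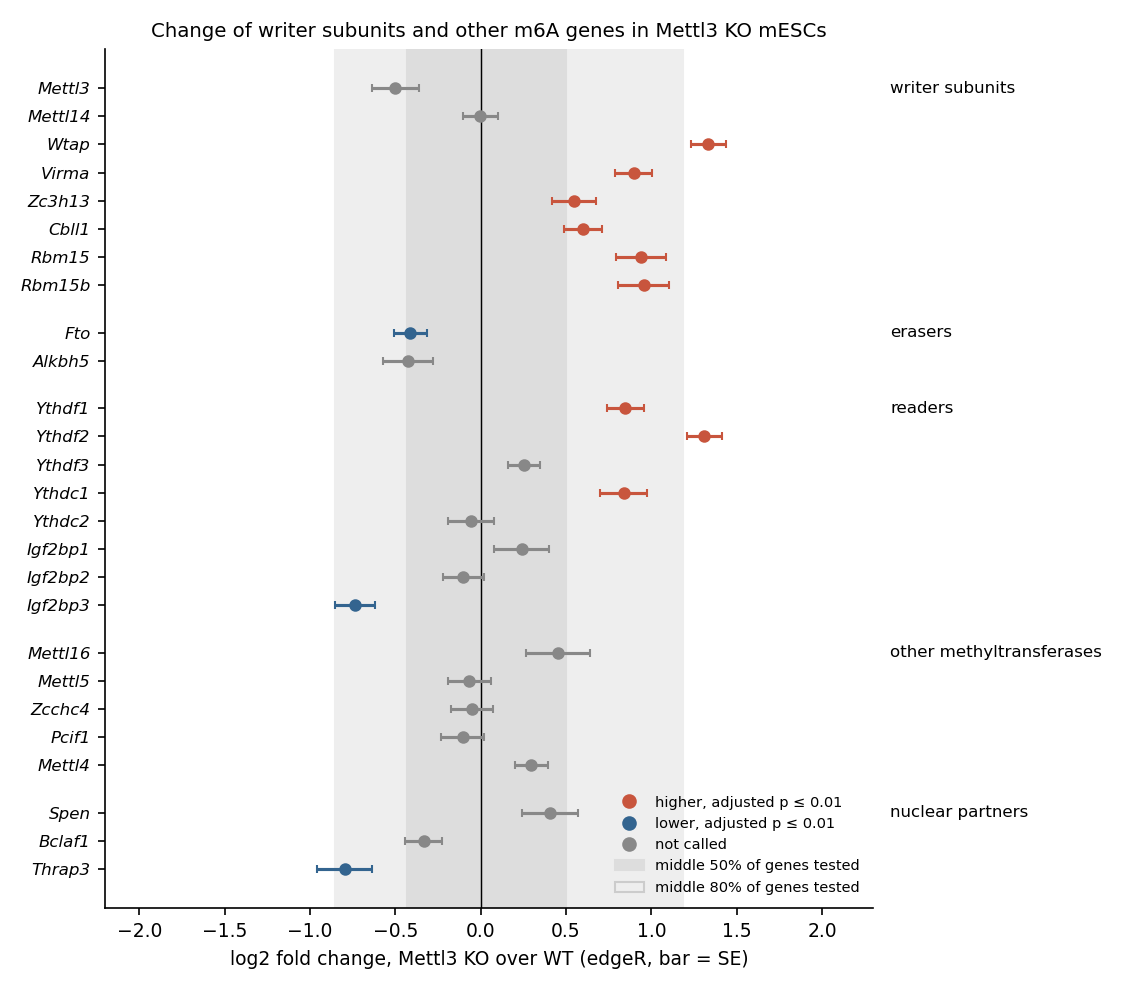
Log2 fold change of KO over WT (dot, with SE) for the writer subunits, erasers, readers, other RNA adenosine methyltransferases and nuclear partners, coloured by whether the adjusted p was at most 0.01; grey bands hold the middle 50% and 80% of all genes tested. Of the writer subunits 6 of 8 are called higher, with Wtap at 1.33 and Zc3h13 at 0.55, against 3 of 8 readers.

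The plot of changes by list places the members against all genes. The change of Wtap was larger in size than that of 87.9% of genes, and those of Rbm15b, Rbm15 and Virma were larger than those of 78.3%, 77.8% and 76.1%. For Cbll1 and Zc3h13 the shares were 60.8% and 57.1%.

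The numbers of sites and the changes were then set side by side. The subunits with 9 or more mESC sites, Virma, Rbm15b, Wtap and Rbm15, had log2 fold changes of 0.90, 0.95, 1.33 and 0.94. Those with 1 to 4 sites, Cbll1, Mettl14 and Zc3h13, had 0.60, −0.0017 and 0.55, and Mettl3 without a site had −0.50. Over the 8 genes the ranks ran together (Spearman's rho 0.857, Pearson's r 0.797, described with no test), and r was 0.773 without Rbm15 and Wtap. Without Mettl3, the targeted gene, rho was 0.786 and r 0.767. The site number also ran with the WT level in CPM (rho 0.833). The site numbers come from the miCLIP2 list of WT mESCs, and the levels and changes of all 8 genes from the same 6 RNA-seq libraries. Over all 15731 genes tested rho was 0.0256 and r was −0.000258. Grouped by site number, the median log2 fold change stood at −0.03 in 9124 genes with no site, −0.06 for 4718 genes with 1 to 4, 0.12 for 1406 genes with 5 to 9 and 0.18 for 483 genes with 10 or more. The median level of these groups rose as well (3.43, 40.6, 67.9 and 116.5 CPM), and its part in the changes was not tested. In the last group 25.9% were called higher and 7.25% lower, and all 3 subunits with 10 or more sites lay above its upper quartile of 0.52.

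**Figure D5:**
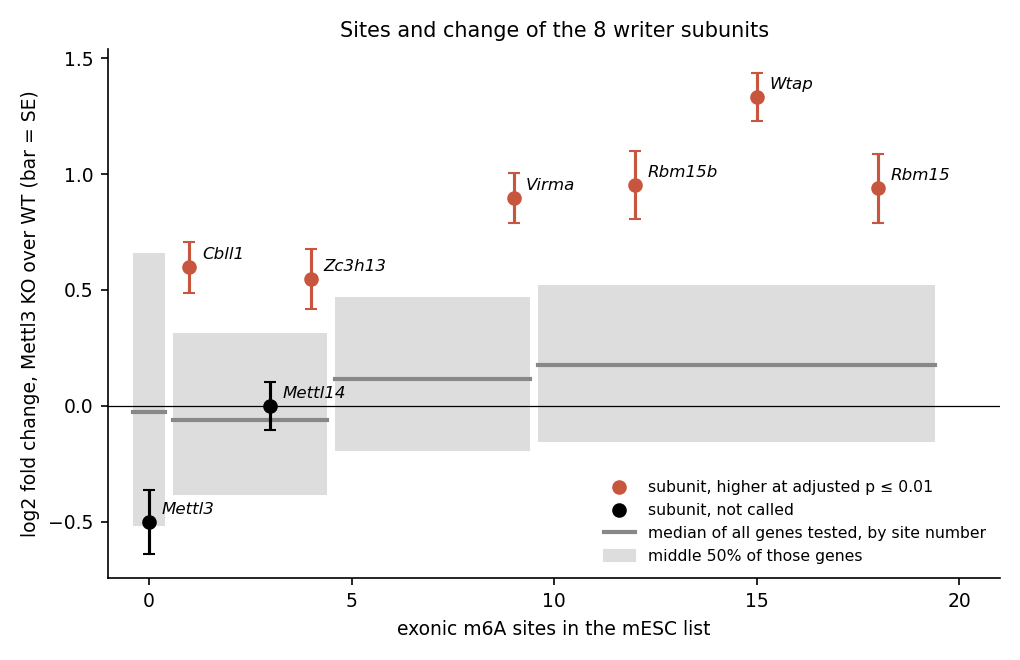
Log2 fold change of KO over WT (dot, with SE) against the number of exonic mESC sites for the 8 subunits, with the median and middle 50% of all genes tested in 4 classes of site number (0, 1 to 4, 5 to 9, 10 or more). Virma, Wtap, Rbm15 and Rbm15b lie above the middle 50% of genes with a like number of sites.

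In the plot of sites and change, Cbll1 and Zc3h13 lie above the middle 50% of genes with 1 to 4 sites (upper quartile 0.31), and Mettl14 lies inside it. Mettl3 lies inside the middle 50% of genes without a site (lower quartile −0.52).

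Levels were compared between subunits per length only. Per kilobase of merged exons, Wtap was highest in WT (18.7 ± 0.53 CPM per kb; SD, n = 3), followed by Rbm15 (13.7 ± 2.90), Zc3h13 (10.98 ± 0.26), Virma (10.4 ± 1.09), Cbll1 (7.46 ± 0.26), Mettl14 (7.15 ± 0.45), Rbm15b (5.95 ± 1.28) and Mettl3 (5.38 ± 0.27). The ranges of Rbm15, Zc3h13 and Virma overlapped from each to the next, and so did those of Cbll1, Mettl14, Rbm15b and Mettl3. Wtap stood apart from Rbm15, and Virma from Cbll1. The order of the lower genes depended on the length used. For Mettl3 the merged exons cover 5076 nt and the longest coding transcript 2025 nt. With the longest coding transcript, Wtap (56.6 ± 1.61 CPM per kb) and Rbm15 (23.3 ± 4.95) had the highest means, Mettl14 (19.4 ± 1.23) and Mettl3 (13.5 ± 0.69) came next, and Rbm15b (5.95 ± 1.28) had the lowest mean. By this length the ranges of Rbm15 and Mettl14, of Virma and Zc3h13, and of Cbll1 and Rbm15b overlapped.

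The share of each subunit in the summed mRNA level was also computed. Per kilobase of merged exons Wtap made up 23.4 ± 0.45% of the summed level of the 8 genes in WT and 33.0 ± 2.35% in KO (SD, n = 3), while Mettl3 made up 6.76 ± 0.42% and 2.67 ± 0.40% and Mettl14 8.98 ± 0.51% and 5.02 ± 0.27%. By the same length Virma made up 13.1 ± 1.33% in WT and 13.7 ± 0.52% in KO, with overlapping SDs. With the longest coding transcript the share of Wtap was 38.0% in WT and 51.5% in KO, and that of Mettl3 9.07% and 3.45%. No p is given for these shares. A share also depends on the levels of the other genes in the sum. The level of Mettl14 per kilobase of merged exons was 7.153 CPM per kb in WT and 7.145 in KO. In KO, Mettl3 was lowest and did not overlap with its neighbour Mettl14 per merged exons. By the longest coding transcript it was lowest too, but its range overlapped with that of its neighbour Rbm15b.

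The genes outside the m6A lists with the most similar profile over the 6 libraries, by root mean square difference of centred log2 CPM, were Slc23a2 for Mettl3 (0.038), Cpsf4 for Mettl14 (0.030), Best1 for Wtap (0.052) and Dclre1a for Virma (0.037). For Zc3h13 it was Dot1l (0.045), for Cbll1 Hipk1 (0.024), for Rbm15 Hhat (0.040) and for Rbm15b Rin2 (0.047), among 15675 genes. Best1 and Hhat were low (1.59 and 3.94 CPM). Their log2 fold changes (1.94 and 1.12) were larger than those of Wtap (1.33) and Rbm15 (0.94). Within the complex, Cbll1 and Zc3h13 were closest to each other (0.088), followed by Virma and Rbm15b (0.109).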

How the data were processed

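Gene counts of 6 mESC RNA-seq libraries and 6 lists of predicted m6A sites were analysed as deposited; no reads were mapped again. The deposited counts were made by the authors with STAR 2.6.1b (STAR 2.7.3a was used for the miCLIP2 reads) and HTSeq 0.12.4, by strand, on GRCm38.p6, and are whole and not normalised. Lines naming no gene (36.7% to 42.7% of all lines' counts) were left out. The score deposited by the authors with each mESC and HEK293T site is the m6Aboost prediction score. The scale of the heart scores is not stated, and they were used to rank sites within a list only. The 8 members and the gene lists were chosen with earlier results of these data known.

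The counts of all genes went into edgeR 4.0.16 under R 4.3.3, with TMM scaling, the filter filterByExpr and the quasi-likelihood functions (glmQLFit, glmQLFTest), without covariates and with a threshold of 0.01 on the adjusted p. DESeq2 1.42.0 was an alternative, and the script was tested on simulated data. The study calls its mESC miCLIP2 replicates biological and the RNA-seq data matched to these samples, without saying what separates the replicates, and p-values measure the spread between these samples. Deviations from the group means correlated at 0.122, 0.464 and 0.303 for replicate numbers 1, 2 and 3 over 15731 genes. Each was above the other pairings with the same KO library, but KO replicate 1 reached 0.110 with WT replicate 3, close to 0.122. The numbers served as pairs only in an alternative fit with a block, and the main fit left them out. The pairing comes from the data, since the labels give the number only.

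Sites were placed with Python 3.11.15 and pysam 0.24.0 on GENCODE M21 (GRCm38) and 44 (GRCh38), which are not the authors' releases, in exons on the same strand and, for position, in the longest coding transcript. Mouse and human transcripts were aligned globally with Biopython 1.88 (match 2, mismatch -3, gap opening -8, gap extension -0.2, end gaps free), and the translations of Rbm15 and Rbm15b with the BLOSUM matrix (gap opening -11, gap extension -1). Coordinates are 1-based. The level per length is CPM divided by kilobases. Named genes are the 8 members, the highest and lowest called gene of each list, and the gene with the most similar profile (log2 of CPM plus 0.5, centred). The SE was taken as the size of the log2 fold change divided by the square root of the quasi-likelihood F, and 95% intervals use the t quantile at the total degrees of freedom given by edgeR. Other miCLIP2 data of the series are not used here.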

Additional observations from a re-analysis of the deposited data

How the results depend on the processing

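Of 182 values recomputed under an alternative, 142 kept their direction and their side of the threshold or stayed within the limits set for a value without a test. The number of subunits called was 5 or 6 when 1 library was left out and 0 when tested against a 2-fold change with glmTreat of edgeR, where 1 subunit, Wtap, had an unadjusted p under 0.05 (adjusted p = 0.0154). The replicate numbers as a block gave 7 called subunits instead of 6, the added gene being Mettl3, and changed no other call among the subunits. The number of genes called among all tested was 4669, and it was 7336 at an adjusted p of 0.05, 728 with glmTreat and 6837 with the block, and between 2761 and 5412 when 1 library was left out, where omitting KO replicate 1 gave 2761, omitting KO replicate 3 gave 3109 and omitting WT replicate 1 gave 3108. With library size as the only scaling, the all-gene median shifted by 0.10 on the log2 scale. The log2 fold change of Mettl14 changed sign to 0.0989 with library size only, to 0.0325 without the filter and to 0.0254 with a minimum of 10 counts per library, and lay between −0.0440 and 0.0486 when 1 library was left out.

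Restricted to sites at or above the median score of their list, subunit sites numbered 30 in mESCs, 41 in heart at 1 µg and 32 in HEK293T cells, 15 sites were shared by mESCs and heart, and 10 mouse sites lay at a human site. With RRACH in place of DRACH the share of motifs that were sites was 7.63%, 9.24% and 7.69% in these 3 lists, and with exons of the longest coding transcript it was 9.37% in heart. By the longest coding transcript the WT levels were 13.5 CPM per kb for Mettl3, 19.4 for Mettl14, 56.6 for Wtap and 23.3 for Rbm15. Aligning the Wtap region after exon 6 as well, chosen after seeing the data, gave 35 mouse sites at a human site. The site lists hold neither reads per site nor replicates, so that a missing site cannot be told from a lack of coverage.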
